A study of Mus musculus with 12 samples.

Results

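The 10 genes described here encode enzymes of threonine and glycine breakdown and of folate one-carbon metabolism, all mitochondrial except the cytosolic Shmt1. They are Tdh, Gcat, Gldc, Amt, Gcsh, Dld, Shmt1, Shmt2, Mthfd2 and Mthfd1l. They were listed by name among the 35580 genes summed from the transcript tables, and all 10 were among the 17424 genes abundant enough to be tested. Tdh was picked by its values in these libraries, because its difference between KO and WT cells changed with time, so its genotype and time-by-genotype values are given as a description without a test. The other 9 were added for their place in the pathway.

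mRNA was sequenced from mouse R1 ESCs and from spheroids grown from them, with 2 libraries in each of 6 groups and 12 libraries in all. The WT cells were the parental line, and the CIDEA KO cells were a single clone, 19.7, from which CRISPR-Cas9 had removed the whole Cidea locus, so the loss of Cidea and other differences of the clone cannot be told apart. By the study's methods, ESCs (0 h) were routinely kept with LIF and 10% FBS, or alternatively with LIF and inhibitors in a medium without FBS. Which of these media was used for the sequenced ESCs is not stated there. Spheroids were collected 24 h and 48 h after transfer to Matrigel with 15% FBS and no LIF. For molecular experiments the methods describe cells on a Matrigel coat, with Matrigel also in the medium. Time, matrix, serum and LIF therefore changed together in both genotypes. Both libraries of a group are described by the study as independent samples. Because whole cultures were sequenced, fewer cells of a type and less RNA per cell cannot be told apart.

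In mitochondria, threonine dehydrogenase (Tdh) oxidises threonine, and Gcat splits the product into glycine and acetyl-CoA. The glycine cleavage system, made of the decarboxylase Gldc, the aminomethyltransferase Amt, the lipoyl carrier Gcsh and the dehydrogenase Dld, then breaks glycine down and passes a one-carbon unit to tetrahydrofolate. Shmt2 in mitochondria and Shmt1 in the cytosol obtain such units from serine, Mthfd2 oxidises the folate-bound unit and Mthfd1l releases it as formate, which the cytosol uses for purines and thymidylate. Mouse ESCs are known for high Tdh and for their dependence on threonine in the medium.

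Depth, as estimated counts, ranged from 29.0 to 38.5 M. Cidea had between 20 and 117 estimated counts in WT libraries and 0 in all KO libraries. Transcripts of 11 markers of pluripotent cells summed to between 2367 and 3863 TPM. The summed levels of markers of other cells were far lower: 6.2 to 11 TPM for 6 primitive endoderm markers, 27 to 38.6 TPM for 6 trophoblast markers, 1.23 to 5.09 TPM for 4 mesoderm markers, 11.5 to 23.4 TPM for 4 neural markers and 6.88 to 24.8 TPM for 6 fibroblast markers, 1 of which was at 0 in every library. One library stood apart: at equal depth KO 24 h replicate 1 held 15473 detected genes, against 17635 to 19672 in the other libraries. Calls that rest on the KO 24 h group are therefore also given without it.

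In WT ESCs Tdh had the highest level of the 10 in TPM (the share of a library's transcripts, scaled to the same total in every library and corrected for transcript length), at 581 ± 6.74 TPM (SD, n = 2). Levels are summed over all annotated transcripts of a gene, coding or not. Tdh was followed by Shmt2 at 247 ± 32.8, Shmt1 at 208 ± 3.56, Gldc at 178 ± 8.65 and Gcsh at 177 ± 23 TPM. The libraries of Gldc and Gcsh overlapped. Mthfd2 at 93.8 ± 2.38 TPM and Gcat at 87.3 ± 10.8 TPM also overlapped, as did Gcat with Dld at 74.1 ± 12.2 TPM and Dld with Mthfd1l at 64.7 ± 3.62 TPM. Amt was lowest at 50.2 ± 7.64 TPM. Tdh alone held 33% of the summed TPM of the 10 in WT ESCs, 25.9% at 24 h and 20.3% at 48 h, while in KO cells its share was 33.6%, 24.4% and 15.8%.

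**Figure D1:**
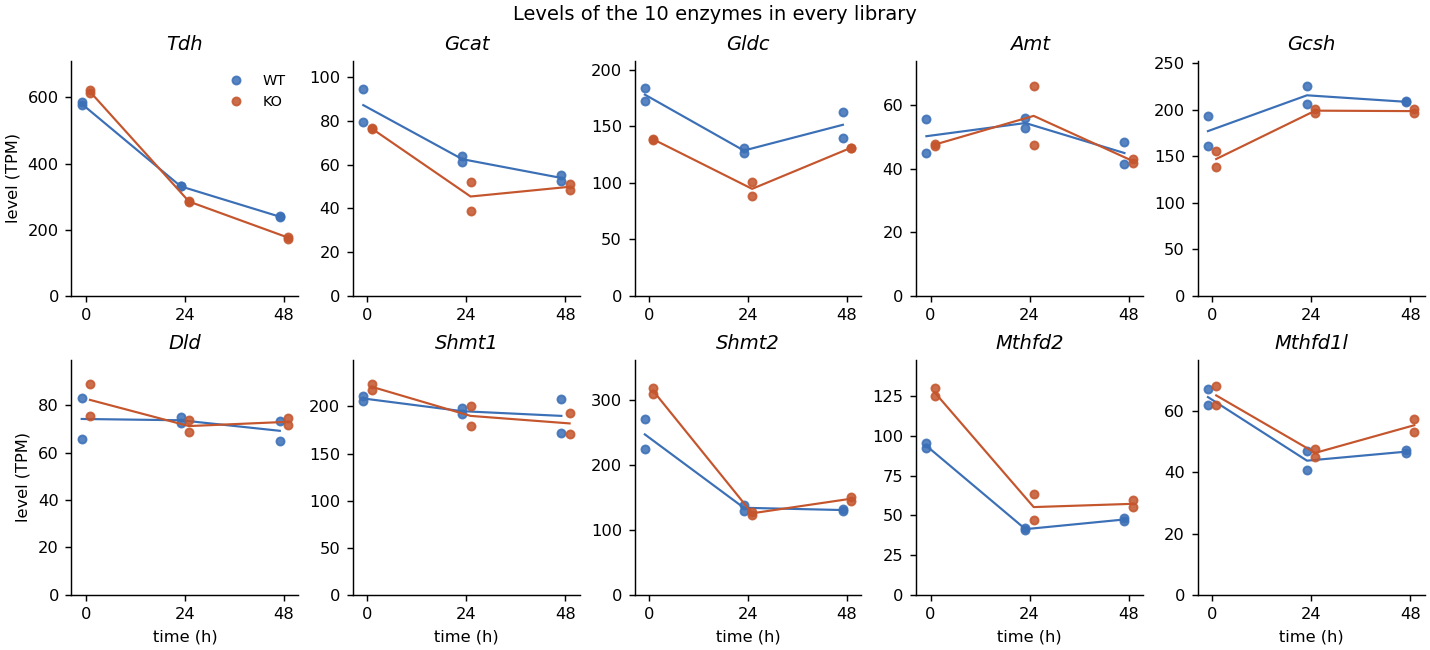
Level of each enzyme in TPM against time in h; each point is 1 library, lines join the group means, WT in blue and KO in orange, and the points of the genotypes are shifted sideways. Tdh, Shmt2 and Mthfd2 fell from 0 to 24 h in both genotypes, whereas Gcsh stood higher in the spheroids and Dld stayed between 64.8 and 88.8 TPM in all libraries.

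Tdh, on the reverse strand of chromosome 14 (63492347 to 63509092, GRCm38), was at 585 and 576 TPM in the WT ESC libraries, at 331 and 331 TPM at 24 h and at 240.4 and 238 TPM at 48 h. In CIDEA KO cells it was at 623 and 612 TPM at 0 h, at 284 and 286 TPM at 24 h and at 173 and 179 TPM at 48 h. Every library of a later time lay below every library of an earlier time in each genotype. The order of the group means was KO 0 h, WT 0 h, WT 24 h, KO 24 h, WT 48 h and KO 48 h, and the libraries of neighbouring groups in that order did not overlap.

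The genotype difference in Tdh, on which the gene was chosen, turned from 36.8 TPM higher in KO cells at 0 h to 46.2 TPM lower at 24 h and 63.2 TPM lower at 48 h. The KO to WT ratio of the means was 1.06, 0.86 and 0.74. From 0 to 48 h the fitted log2 change was -1.24 (SE 0.062) in WT and -1.73 (SE 0.063) in KO cells, and the difference between these changes was -0.49 (SE 0.087). At 24 h that difference was -0.24 (SE 0.087), or -0.30 (SE 0.099) without KO 24 h replicate 1.

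The mean time course of both genotypes does not use that difference, and there Tdh could be tested. The same libraries gave the choice of Tdh and its SE, so the p-values are not fully independent of that choice. It fell by 0.97 on the log2 scale from 0 to 24 h (SE 0.044, edgeR adjusted p = 2.2e-12) and by a further 0.52 from 24 to 48 h (SE 0.044, edgeR adjusted p = 4.8e-08). It was lower in 4 of 4 spheroid libraries at 24 h than in any of the 4 ESC libraries. The transcript Tdh-201, the protein-coding one among 6 annotated, held between 86.6% and 99.7% of the gene's TPM in every library, and averaged 514, 297 and 228 TPM in WT and 558, 277 and 166 TPM in KO cells at the 3 times.

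Likeness to Tdh was measured as Pearson's r across the 12 libraries on log2 CPM (counts scaled to library size), over 9616 genes with a mean of at least 3. The libraries of a group and the shared change with time enter every such value, so it is a description only. The 5 genes most like Tdh were Tcl1 (r = 0.993), an Akt co-activator, Dclk2 (r = 0.992), a microtubule-binding kinase, Dact2 (r = 0.992), a Dishevelled-binding protein, Cep55 (r = 0.991), which acts in abscission, and Socs3 (r = 0.990), a feedback inhibitor of LIF signalling. Tcl1 went from a mean of 179 TPM in WT ESCs to 51 and 23.6 TPM, and from 181 to 44.4 and 15.8 TPM in KO cells. Socs3 dropped further, from 88.5 to 7.1 and 2.14 TPM in WT and from 112 to 7.3 and 1.02 TPM in KO cells. None of the other enzymes was among these 5: the closest were Shmt2 (r = 0.852, rank 795) and Shmt1 (r = 0.831, rank 940), followed by Gcat (r = 0.800, rank 1162) and Mthfd2 (r = 0.797, rank 1180). Gcsh ran the other way (r = -0.665).

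From ESCs to 48 h spheroids, 6 of the 9 tested enzymes fell in WT cells and 0 rose (edgeR quasi-likelihood test, adjusted p under 0.05 over all genes). Over all genes the same test called 23.6%, with 11.1% higher and 12.5% lower. The median log2 change of the 9 was -0.25, against 0.02 over all genes tested. In KO cells 4 fell and 1 rose, beside 25% called over all genes, with 12.1% higher and 12.8% lower, and the median was -0.16 against 0.01. The 4 that fell in KO cells, Gcat, Shmt2, Mthfd2 and Mthfd1l, were also among those that fell in WT.

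**Figure D2:**
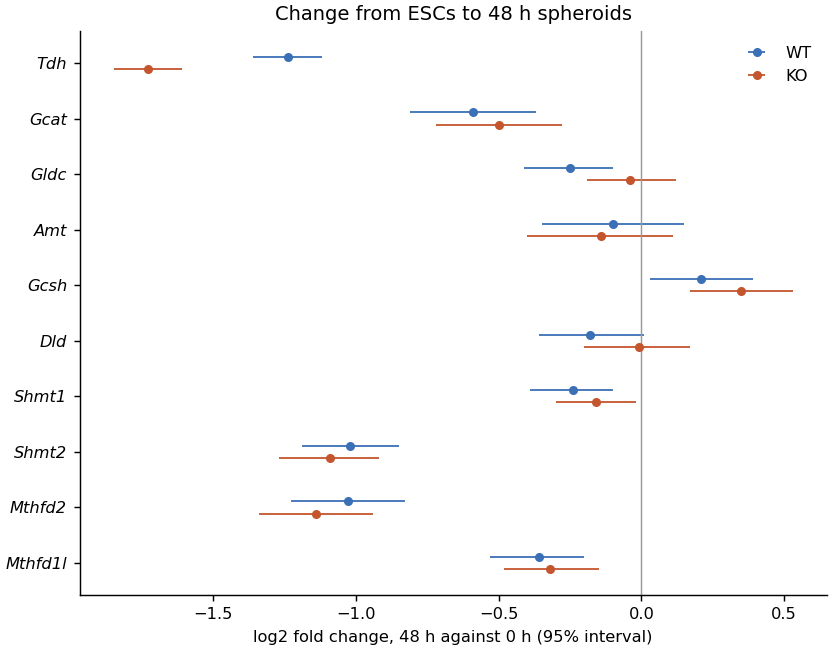
Log2 fold change from 0 to 48 h for each enzyme with a normal 95% interval based on the edgeR fit, WT in blue and KO in orange. Tdh at -1.24 and -1.73 is shown as a description, Shmt2 and Mthfd2 lie near -1.0 to -1.1 in both genotypes, and Gcsh is the only one of the 10 whose estimates are above 0 in both.

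Shmt2 and Mthfd2 changed most among the tested enzymes. Shmt2 was at 270.2 and 224 TPM in WT ESCs and at 129 and 132 TPM at 48 h, a log2 change of -1.02 (SE 0.089, edgeR adjusted p = 3.8e-08). KO cells had 309.7 and 319 TPM and then 145 and 151 TPM, a log2 change of -1.09 (SE 0.089, edgeR adjusted p = 1.1e-08). All 4 ESC libraries were above all 8 spheroid libraries. Mthfd2 was at 95.5 and 92.1 TPM in WT ESCs and at 46.2 and 48.6 TPM at 48 h, a log2 change of -1.03 (SE 0.1, edgeR adjusted p = 2.0e-07). KO cells went from 125 and 129.9 TPM to 59.4 and 55.1 TPM, by -1.14 (SE 0.1, edgeR adjusted p = 3.8e-08), and here too no ESC library overlapped a spheroid library.

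The promoters of Shmt2 and Mthfd2 are shown because these genes had the largest changes of the tested enzymes in both genotypes, and that of Gcat because it held the only motif match. Promoter windows from RefSeq (GRCm38.p6), with 250 bases before and 30 after the annotated start, were found for 9 of the 10 genes; Tdh had no entry. The core of the amino acid response element bound by Atf4, TGATGNAA on either strand, was in 0 of the 9 windows and in 3.81% of all 32851 promoters of that length. The E-box CACGTG, which is the same on both strands and does not overlap the other motif, was in 1 of the 9, Gcat, and in 6.79% of all promoters. Its 6 bases are in capitals and begin at base 253 of the window. The windows are chr10:127522415-127522694 (reverse strand), chr6:83317575-83317854 (reverse strand) and chr15:79030624-79030903 (forward strand), read 5′ to 3′ in the direction of transcription. A match or its absence describes only the letters in the window.
Shmt2: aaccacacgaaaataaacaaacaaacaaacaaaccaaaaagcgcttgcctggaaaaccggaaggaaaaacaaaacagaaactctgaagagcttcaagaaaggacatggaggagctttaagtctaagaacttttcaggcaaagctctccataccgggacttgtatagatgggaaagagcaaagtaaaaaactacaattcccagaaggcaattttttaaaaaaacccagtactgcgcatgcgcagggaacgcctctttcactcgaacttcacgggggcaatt
Mthfd2: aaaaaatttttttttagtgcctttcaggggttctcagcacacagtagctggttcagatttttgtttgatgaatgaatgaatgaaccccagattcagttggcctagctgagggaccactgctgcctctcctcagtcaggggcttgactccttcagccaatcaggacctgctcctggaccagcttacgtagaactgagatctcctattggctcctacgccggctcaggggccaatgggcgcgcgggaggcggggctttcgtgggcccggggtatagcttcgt
Gcat: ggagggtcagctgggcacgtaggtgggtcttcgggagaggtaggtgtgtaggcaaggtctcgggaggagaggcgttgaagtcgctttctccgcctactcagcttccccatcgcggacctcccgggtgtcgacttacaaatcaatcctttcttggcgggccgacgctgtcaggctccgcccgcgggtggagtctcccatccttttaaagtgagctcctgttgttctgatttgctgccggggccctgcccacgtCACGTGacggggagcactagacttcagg

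The fall came early. Averaged over the genotypes, 6 of the 10 fell between 0 and 24 h and 2 rose, while the test called 28.1% of all genes, 14.2% higher and 13.9% lower. The median log2 change of the 10 was -0.51 against -0.02 for all genes. Besides Tdh, Shmt2 fell by 1.13 on the log2 scale (SE 0.063, edgeR adjusted p = 4.6e-11), Mthfd2 by 1.28 (SE 0.072, adjusted p = 4.7e-11), Gldc by 0.55 (SE 0.055, adjusted p = 2.3e-07), Mthfd1l by 0.52 (SE 0.06, adjusted p = 1.3e-06) and Gcat by 0.50 (SE 0.079, adjusted p = 6.5e-05). Gcsh rose by 0.29 (SE 0.065, edgeR adjusted p = 0.002). Amt rose by 0.25 (SE 0.091, edgeR adjusted p = 0.049), but by 0.12 without KO 24 h replicate 1, in which it reached 65.9 TPM. The other KO library of that time was at 47.3 TPM. The protein-coding Amt-201 went from 29.6 and 29.6 TPM at 0 h to 42.5 and 43.3 TPM at 24 h in WT. In KO cells it went from 33.4 and 35 to 35.2 and 39 TPM. The transcript Amt-202, not marked as coding, was at 30.7 TPM in KO 24 h replicate 1. Without that library 7 of the 10 were called, Amt being the one lost, and the others had log2 changes of -0.99 (Tdh), -1.19 (Shmt2), -1.37 (Mthfd2), -0.52 (Gldc), -0.53 (Mthfd1l), -0.47 (Gcat) and 0.27 (Gcsh).

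From 24 to 48 h, 4 of the 10 were called, 2 in each direction, beside 18.1% of all genes, 8.43% higher and 9.69% lower. The medians of the 10 and of all genes were both 0.02. Tdh went on falling, as given above, by 0.50 without KO 24 h replicate 1 (adjusted p = 5.2e-09). Amt fell by 0.37 (SE 0.091, edgeR adjusted p = 0.0067), or by 0.25 without that library (adjusted p = 0.030), and it was not called with transcript length offsets or by limma on TPM. Gldc rose by 0.41 (SE 0.055, edgeR adjusted p = 2.1e-05), or by 0.37 without that library (adjusted p = 1.9e-05), and Mthfd1l by 0.19 (SE 0.06, adjusted p = 0.035). The rise of Mthfd1l was not called with transcript length offsets or by limma on TPM, and had an adjusted p of 0.057 without KO 24 h replicate 1, and 4 enzymes were called without it, with Mthfd2 in its place. Shmt2 and Mthfd2 had log2 changes of 0.07 (SE 0.062) and 0.20 (SE 0.071), which did not pass the test (edgeR adjusted p = 0.511 and 0.065).

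Gcat, which shares with Tdh the route from threonine to glycine, was at 79.7 and 94.9 TPM in WT ESCs, at 63.9 and 61.2 TPM at 24 h and at 55.5 and 52.4 TPM at 48 h, a log2 change over 48 h of -0.59 (SE 0.11, edgeR adjusted p = 5.2e-04). The KO libraries were at 76.3 and 77 TPM, then at 38.9 and 52 TPM, and at 51.4 and 48.4 TPM at 48 h, a log2 change of -0.50 (SE 0.11, edgeR adjusted p = 0.0022). The ESC libraries were above the spheroid libraries in each genotype. Without KO 0 h replicate 1 the change in KO cells was -0.40 (edgeR adjusted p = 0.055). The levels of both enzymes did not fall in proportion: the ratio of Tdh to Gcat went from 7.34 and 6.07 in WT ESCs to 4.33 and 4.54 at 48 h, and from 8.16 and 7.95 to 3.37 and 3.70 in KO cells. At 48 h the KO ratios were below the WT ratios, which is not tested because Tdh was chosen on its genotype difference. A short annotated Gcat fragment of 679 bases, Gcat-202, took a median of 58.5% of the gene's TPM, so the division between its transcripts is uncertain.

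**Figure D3:**
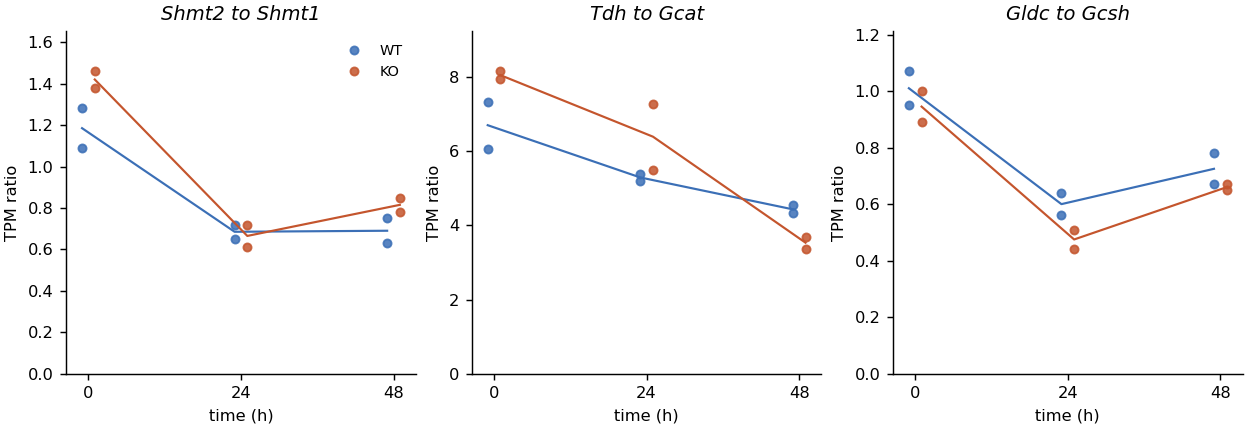
Ratios of TPM between paired enzymes against time in h, 1 point per library, with lines through the group means. TPM is summed over all annotated transcripts; the ratio of Shmt2 to Shmt1 was lower in every spheroid library than in any ESC library, with an order of the pair that does not hold for coding transcripts alone, Tdh to Gcat decreased to between 3.37 and 4.54 at 48 h, and Gldc to Gcsh was lowest at 24 h.

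Of the glycine cleavage system, Gldc, its decarboxylase, fell and then partly returned. It was at 172 and 184 TPM in WT ESCs, at 126 and 131 TPM at 24 h and at 139.6 and 163 TPM at 48 h, so that it ended 0.25 lower on the log2 scale than at the start (SE 0.078, edgeR adjusted p = 0.023). This change did not pass without WT 0 h replicate 2 (-0.20, adjusted p = 0.189) or WT 48 h replicate 1 (-0.13, adjusted p = 0.411), nor with transcript length offsets (-0.26, adjusted p = 0.077) or limma on log2(TPM + 1) (-0.24, adjusted p = 0.136). In KO cells it went from 139 and 138 TPM to 88.2 and 101 TPM and back to 131 and 131 TPM, with a log2 change over 48 h of -0.04 (SE 0.078, edgeR adjusted p = 0.839). The lowest libraries were those of 24 h in each genotype.

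Gcsh, which carries the lipoyl arm between the subunits, was at 161 and 193 TPM in WT ESCs and at 209 and 208 TPM at 48 h, with a log2 change of 0.21 that did not pass the test (SE 0.092, edgeR adjusted p = 0.116). In KO cells it rose from 156 and 138 to 196 and 201 TPM, by 0.35 (SE 0.092, edgeR adjusted p = 0.0072), or 0.30 without KO 0 h replicate 2 (adjusted p = 0.101) and 0.33 without KO 48 h replicate 2 (adjusted p = 0.053). The ratio of Gldc to Gcsh was 1.07 and 0.95 in WT ESCs and 0.56 and 0.64 at 24 h, and in KO cells its mean went from 0.95 to 0.48 between these times. Amt, which transfers the one-carbon unit to folate, lay between 41.4 and 65.9 TPM, and its 48 h change passed the test in neither genotype (WT log2 -0.10, SE 0.13; KO log2 -0.14, SE 0.13). Dld, whose product also serves the pyruvate, oxoglutarate and branched-chain ketoacid dehydrogenases, had log2 changes of -0.18 in WT and -0.01 in KO cells (SE 0.094 each), and it was called in none of the 9 comparisons.

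Shmt1, the cytosolic counterpart of Shmt2, changed far less. It was at 211 and 206 TPM in WT ESCs and at 172 and 208 TPM at 48 h, a log2 change of -0.24 (SE 0.072, edgeR adjusted p = 0.018), and at 224 and 218 TPM and then 171 and 193 TPM in KO cells, with a log2 change of -0.16 that did not pass the test (SE 0.072, edgeR adjusted p = 0.127). The WT change was not called without either WT ESC library (-0.24, adjusted p = 0.088 and 0.080) or without WT 48 h replicate 1 (-0.16, adjusted p = 0.279), nor with transcript length offsets (-0.16, adjusted p = 0.378) or limma on log2(TPM + 1) (-0.13, adjusted p = 0.442). The ratio of Shmt2 to Shmt1 was 1.28 and 1.09 in WT ESCs and 0.75 and 0.63 at 48 h, and 1.38 and 1.46 against 0.85 and 0.78 in KO cells. The main coding transcript, Shmt1-201, held a median of 44.6% of the gene's TPM, the rest being divided among 10 others, several of them retained-intron models, and which of the pair is higher depends on these. Over all annotated transcripts Shmt2 was above Shmt1 in the 4 ESC libraries and below it in the 8 spheroid libraries, but over protein-coding transcripts alone Shmt2 was above Shmt1 in all 12. That coding ratio was 2.35 and 1.88 in WT ESCs and 1.29 and 1.32 at 48 h, and 2.92 and 2.41 against 1.28 and 1.43 in KO cells, so it also was lower in every spheroid library than in any ESC library.

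Mthfd1l, the mitochondrial formate-releasing synthetase, was at 67.2 and 62.1 TPM in WT ESCs, at 47 and 40.7 TPM at 24 h and at 47.2 and 46.4 TPM at 48 h, a log2 change over 48 h of -0.36 (SE 0.084, edgeR adjusted p = 0.0034). In KO cells it was at 62 and 68.4 TPM, at 45.2 and 47.6 TPM and at 57.6 and 53.3 TPM, a log2 change of -0.32 (SE 0.084, edgeR adjusted p = 0.0083). The ESC libraries were the highest in both genotypes. Without WT 48 h replicate 2 the WT change was -0.31 (adjusted p = 0.059), and without KO 0 h replicate 2 or KO 48 h replicate 1 the KO change was -0.25 or -0.26 (adjusted p = 0.141 and 0.120). The KO change was also not called with transcript length offsets (-0.20, adjusted p = 0.264) or limma on log2(TPM + 1) (-0.23, adjusted p = 0.201). The summed TPM of all 10 genes went from 1752 and 1770.2 in WT ESCs to 1154 and 1210.3 at 48 h, and from 1837 and 1837 to 1101 and 1125 in KO cells, and most of that decrease was in Tdh and Shmt2.

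Between the genotypes, Gldc was the enzyme that differed most often. Its log2 difference, KO against WT, was -0.40 at 0 h (SE 0.078, edgeR adjusted p = 0.0098) and -0.47 at 24 h (SE 0.078, edgeR adjusted p = 0.0032), or -0.40 without KO 24 h replicate 1 (adjusted p = 0.018). The difference at 0 h kept its size but not its call without KO 0 h replicate 1 (-0.39, adjusted p = 0.106), KO 0 h replicate 2 (-0.39, 0.124) or WT 0 h replicate 2 (-0.35, 0.138). At 48 h it was -0.18 (SE 0.078) and did not pass the test (edgeR adjusted p = 0.554). At all 3 times both KO libraries were below both WT libraries. Gcat was lower in KO cells at 24 h, by 0.57 on the log2 scale (SE 0.11, edgeR adjusted p = 0.010), or by 0.52 without KO 24 h replicate 1 (edgeR adjusted p = 0.043), and without WT 24 h replicate 1 the difference of -0.50 did not pass (edgeR adjusted p = 0.199). Its differences of -0.13 at 0 h and -0.04 at 48 h did not pass.

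The comparison at 0 h called 1 of the 9 tested enzymes and that at 24 h called 2. At 48 h edgeR called 0, although 4 of the 9 and 1349 of all genes had an unadjusted p under 0.05, and DESeq2 called 0. Over all genes 1.26% were called at 0 h, 1.46% at 24 h and 0.671% at 48 h. Mthfd2 was higher in both KO libraries than in both WT libraries at each time, with log2 differences of 0.34, 0.34 and 0.23 (SE 0.099, 0.1 and 0.1), and none passed the test (edgeR adjusted p = 0.123, 0.131 and 0.568). Its difference at 24 h was 0.17 without KO 24 h replicate 1. In KO 24 h replicate 1 a transcript marked for nonsense-mediated decay, Mthfd2-206, held 33.7% of the gene's TPM, the most in any library. The log2 difference of Shmt2 was 0.31 at 0 h, -0.06 at 24 h and 0.24 at 48 h (SE 0.088 each), and it did not pass either (edgeR adjusted p = 0.109, 0.834 and 0.409).

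**Figure D4:**
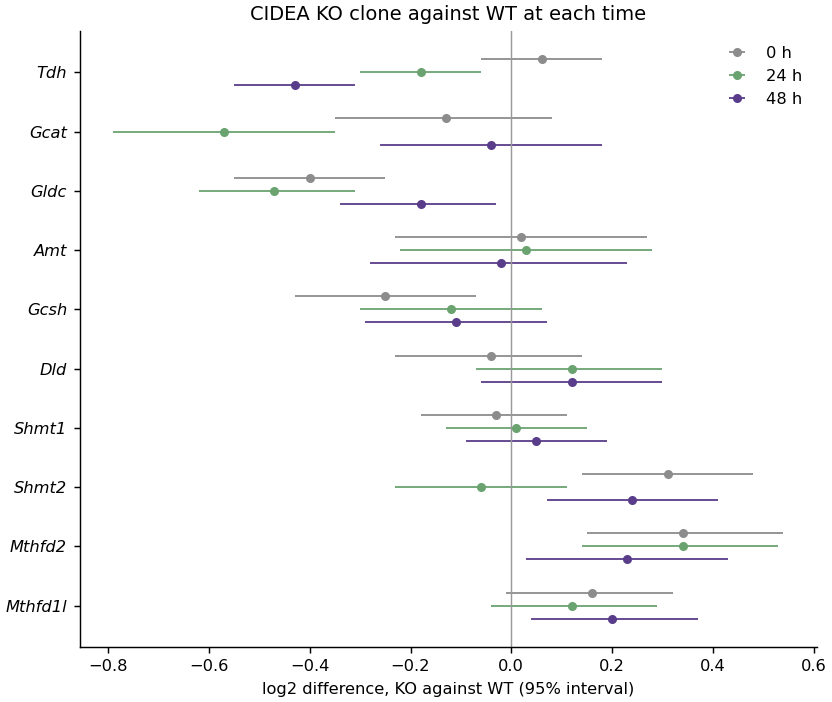
Log2 difference between KO and WT for each enzyme at 0, 24 and 48 h with a normal 95% interval based on the edgeR fit. The Gldc estimates are below 0 at each time, the Mthfd2 estimates above 0 at each time, and the Tdh estimates, shown as a description, go from 0.06 to -0.18 and -0.43.

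Whether the genotype difference changed with time was tested for the 9 enzymes other than Tdh. From 0 to 48 h it was called for 0 of the 9 by edgeR, with 0 at an unadjusted p under 0.05, beside 0.0402% called over all genes. From 0 to 24 h it was called for 0 of the 9 by edgeR, with 2 at an unadjusted p under 0.05, beside 0.0115% over all genes. DESeq2 called 0 in both. The 2 were Gcat, at -0.44 (SE 0.16, edgeR adjusted p = 0.840), and Shmt2, at -0.37 (SE 0.12, edgeR adjusted p = 0.840). Without KO 24 h replicate 1 these were -0.39 (adjusted p = 0.912) and -0.50 (adjusted p = 0.221). For Gldc the change from 0 to 48 h was 0.22 (SE 0.11, 95% interval 0.00 to 0.43, edgeR adjusted p = 0.888), and for Mthfd2 it was -0.11 (SE 0.14, 95% interval -0.39 to 0.17).

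For comparison with nearby genes, the genotype difference of each enzyme was set beside the median of its neighbours. Averaged over the 3 times, Gldc on chromosome 19 was at a log2 difference of -0.35 between KO and WT, and the median of its 20 nearest tested genes, 10 on each side, was 0.07. Gcat on chromosome 15 was at -0.25, against a median of -0.05 for 19 neighbours. Tdh was at -0.18 and the median of its 20 neighbours was 0.00. Mthfd2 on chromosome 6 was at 0.30 with neighbours at 0.06, whereas Shmt2 on chromosome 10 was at 0.16 and its neighbours at 0.13. The values were -0.16 and -0.08 for Gcsh, 0.16 and 0.02 for Mthfd1l with 13 neighbours, 0.01 and -0.02 for Amt, 0.07 and 0.06 for Dld, and 0.01 and 0.03 for Shmt1.

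Genes of 8 neighbouring pathways, 65 tested of 67 listed, were examined beside the enzymes. In WT cells 22 of the 65 fell and 12 rose from 0 to 48 h, beside 12.5% lower and 11.1% higher over all genes, and in KO cells 21 fell and 16 rose, beside 12.8% and 12.1%. Between the genotypes 2 were called at 0 h (1.26% of all genes), 2 at 24 h (1.46%) and 0 at 48 h (0.671%). At 0 h these were Pdha1, a subunit of pyruvate dehydrogenase, which was lower in KO cells, and Atf4, which was higher. At 24 h they were Atf4 and the folate enzyme Aldh1l2, both higher, and neither was called without KO 24 h replicate 1, which left 0 of the 65.

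**Figure D5:**
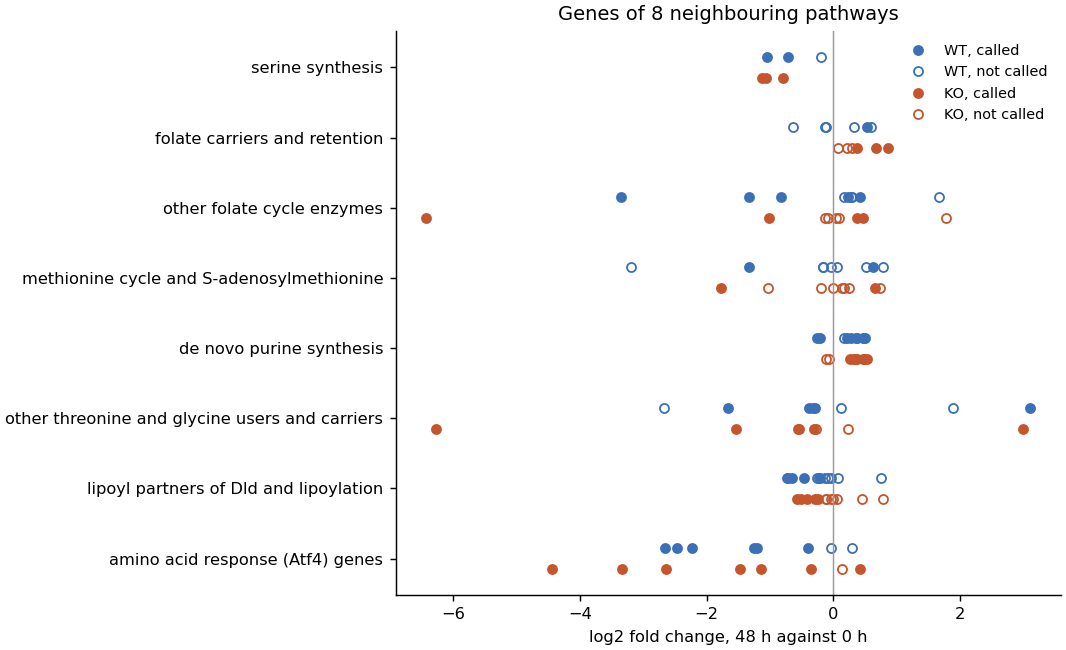
Log2 fold change from 0 to 48 h of each tested gene in 8 pathway lists, WT in blue and KO in orange, filled where edgeR called the change and open where it did not. The filled points of serine synthesis and of the Atf4 list lie below 0 except for 1 in KO cells, and most of the filled points of purine synthesis lie above 0.

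Serine synthesis supplies both Shmt enzymes. In WT cells 2 of its 3 enzymes fell, beside 12.5% lower over all genes, and the list median was -0.72 against 0.02. In KO cells all 3 fell, beside 12.8% lower over all genes, and the median was -1.07 against 0.01. Phgdh, the first enzyme, was at 105 and 123 TPM in WT ESCs and 59.6 and 60.6 TPM at 48 h, a log2 change of -0.72 (edgeR adjusted p = 1.8e-04). In KO cells its log2 change was -1.12 (adjusted p = 8.9e-07). Psat1, the transaminase, fell by 1.05 in WT and by 1.07 in KO cells (edgeR adjusted p = 4.8e-09 and 2.7e-09), and Psph fell by 0.79 in KO cells (edgeR adjusted p = 0.0026).

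Atf4 is the transcription factor of the amino acid response, and it is known to raise several genes of serine synthesis and of the mitochondrial folate pathway. Of 8 genes on its list, 6 fell and 0 rose in WT cells, with a median of -1.23 against 0.02 over all genes. In KO cells 6 fell and 1, Ddit4, rose, with a median of -1.31 against 0.01. Over all genes 12.5% fell and 11.1% rose in WT, and 12.8% and 12.1% in KO cells. Atf4 itself was at 162 and 163 TPM in WT ESCs and at 67.9 and 70.7 TPM at 48 h, a log2 change of -1.25 (SE 0.084, edgeR adjusted p = 9.4e-10). In KO cells it was at 235 and 243 TPM and then at 82.5 and 80.5 TPM, a log2 change of -1.47 (SE 0.084, edgeR adjusted p = 6.4e-11). Atf4 was higher in KO than in WT cells by 0.49 at 0 h (edgeR adjusted p = 0.0024) and by 0.34 at 24 h (edgeR adjusted p = 0.049). Without KO 24 h replicate 1 the latter was 0.24 and did not pass (edgeR adjusted p = 0.342).

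Among the other genes of that list, Asns, which makes asparagine, went from 324 and 345 TPM to 79.9 and 72.2 TPM in WT and from 417 and 438 TPM to 62.1 and 72.5 TPM in KO cells, log2 changes of -2.24 and -2.64. Chac1, which degrades glutathione, changed by -2.66 and -4.44, and Trib3, a pseudokinase, by -2.47 and -3.34. No ESC library of Asns overlapped a spheroid library. The change of the genotype difference from 0 to 48 h was not called for any of the 8.

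De novo purine synthesis, which consumes glycine and one-carbon units, went mostly the other way. In WT cells 7 of its 10 enzymes rose and 2, Paics and Impdh2, fell, with a median of 0.32 against 0.02 over all genes. In KO cells 8 rose and 0 fell, with a median of 0.34 against 0.01. Over all genes 11.1% rose and 12.5% fell in WT, and 12.1% and 12.8% in KO cells. Adsl rose by 0.50 in WT and 0.38 in KO cells, Pfas by 0.49 and 0.46, Gmps by 0.46 and 0.53, and Prps1 by 0.38 and 0.34.

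Among the other folate cycle enzymes, the cytosolic Mthfd1 rose by 0.23 in WT and 0.38 in KO cells from 0 to 48 h. Aldh1l1, a cytosolic formyltetrahydrofolate dehydrogenase, fell by 1.33 in WT cells, and its change in KO cells was -0.08. The difference between these changes, 1.25, did not pass the test (edgeR adjusted p = 0.187). The WT ESC libraries of Aldh1l1 were at 17.7 and 10.7 TPM. Aldh1l2, the mitochondrial form, was at 3.24 and 2.11 TPM in WT ESCs and 0.412 and 0.507 TPM at 48 h, and at 4.72 and 8.99 TPM and then 0.103 and 0.0573 TPM in KO cells. At 24 h it was at 0.886 and 0.513 TPM in WT and 2.51 and 0.507 TPM in KO cells, so the genotypes overlapped and the high value was in KO 24 h replicate 1. The log2 difference at 24 h was 2.66 (edgeR adjusted p = 0.020) and 1.27 without that library (edgeR adjusted p = 0.316).

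Of 6 folate carriers and retention enzymes, 1 was called in WT cells, beside 23.6% of all genes. It was the reduced folate carrier Slc19a1, which rose by 0.53. In KO cells 3 of the 6 rose, beside 25% of all genes called: Slc19a1 by 0.67, Slc25a32 by 0.86 and Fpgs by 0.37. The change of the genotype difference from 0 to 48 h was called for 0 of the 6. Of 9 methionine cycle genes 2 were called in each genotype, a share near the 23.6% and 25% of all genes: Mat2a, which makes S-adenosylmethionine, rose by 0.63 and 0.65, and Cth, which makes cysteine, fell by 1.33 and 1.77. Among 8 other users and carriers of threonine and glycine, 3 fell in WT cells, beside 12.5% lower over all genes. They were the glycine transporter Slc6a9 by 1.66 and the threonyl-tRNA synthetases Tars by 0.38 and Tars2 by 0.29. These 3 fell in KO cells too, by 1.54, 0.56 and 0.30, together with Tha1, beside 12.8% lower over all genes. Gatm, which uses glycine for creatine, rose from under 0.4 TPM in each ESC library to between 2.54 and 3.24 TPM at 48 h.

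The 12 partners of Dld and of lipoylation had 5 genes called in each genotype, all lower and the same 5. Over all genes 12.5% were lower in WT and 12.8% in KO cells. Bckdha fell by 0.73 in WT and 0.51 in KO cells, Pdha1 by 0.71 and 0.58 and Pdhx by 0.65 and 0.41. Pdhb fell by 0.46 and 0.29 and Ogdh by 0.22 and 0.25. Pdha1 was at 179 and 186 TPM in WT ESCs and at 142 and 146 TPM in KO ESCs, a log2 difference of -0.35 (edgeR adjusted p = 0.029).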

How the data were processed

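mRNA libraries (TruSeq Stranded, paired-end) were made from 6 groups of 2. Per the labels and the study's methods, the authors trimmed reads with Trimmomatic 0.33, checked them with FastQC and quantified transcripts with kallisto 0.43.1, per the submitters' processing notes. The transcript set is not given in the sources used here. The deposited tables give estimated counts, unscaled and divided by kallisto among similar transcripts, and TPM, which the authors' tool scales for transcript length and depth. Deposited lengths and effective lengths per transcript were used for offsets only.

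Transcripts were matched by identifier to GENCODE M21 (GRCm38), 113580 of 115270 (98.5%). The rest held 0.659% to 0.709% of counts and were left out. A second identifier with the symbol Gcat, a read-through transcript at 0 to 12 TPM, was kept apart. Gene sums of estimated counts were rounded. The main test was the robust quasi-likelihood test of edgeR 4.0.16 under R 4.3.3, after filterByExpr and TMM, with one mean per group across 12 libraries, and p-values were adjusted by Benjamini-Hochberg over 17424 genes with a threshold of 0.05. No test for RNA-seq is stated by the study. Depth of 29.0 to 38.5 M estimated counts makes counting error small beside the spread between libraries. The chi-square per degree of freedom between the 2 libraries of a group was 11 to 32.4, so none was a copy of another.

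The members, gene lists and tests were chosen with earlier results of these data known. Named genes are the 10 members, up to 4 genes of each list with the largest change among those called in WT from 0 to 48 h, list genes called between genotypes, and the 5 genes most like Tdh. Other list genes (Psph, Ddit4, Paics, Impdh2, Mthfd1, Slc25a32, Fpgs, Tha1, Ogdh) were named after their values were seen. Some genes of the folate list are not reported here. Alternatives were DESeq2 1.42.0, its size factors, other filters, limma 3.58.1 on log2(TPM + 1) and log2(TPM + 0.1), transcript length offsets, the compared groups alone, a replicate block and leaving out each library. Fits were tested on simulated counts.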

Additional observations from a re-analysis of the deposited data

Results flagged for a closer look

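For 2 enzymes the libraries of KO and WT cells stood in opposite order at different times, in TPM summed over all annotated transcripts. How many of all genes show such a reversal was not counted, so this is a description only. In Tdh, both KO libraries were above both WT libraries at 0 h and below them at 24 h and 48 h. The genotype difference changed by -0.24 on the log2 scale at 24 h and by -0.49 at 48 h, and since Tdh was chosen on this, the change was not tested here. In Shmt2 both KO libraries were above both WT libraries at 0 h (309.7 and 319 against 270.2 and 224 TPM) and below them at 24 h (128 and 123 against 139 and 129 TPM). Over protein-coding transcripts alone the Shmt2 libraries of 24 h overlapped, at 128 and 110.3 TPM in KO and 121 and 118 TPM in WT cells. The change of its difference was -0.37 (SE 0.12), with an edgeR adjusted p of 0.840 (-0.50 and 0.221 without KO 24 h replicate 1), and at 48 h the KO libraries were again above, so the opposite order at 24 h did not pass the test.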

How the results depend on the processing

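With 2 libraries a group, differences near the standard errors given could not be shown. Tdh, Shmt2 and Mthfd2 kept every call they had under all 23 alternatives, and no called value changed sign. The log2 change of the genotype difference in Tdh from 0 to 48 h ranged from -0.53 to -0.47. The rises of Amt from 0 to 24 h and of Mthfd1l from 24 to 48 h each lost their call in 15 of 23 alternatives. Of the counts of enzymes called, 188 of 207 stayed within 1.5 times, or at 0 where the main count was 0. These include alternatives that left out a library in neither group compared. With length offsets and both limma fits, Gldc and Shmt1 were lost for WT from 0 to 48 h, leaving 4 of 6. For KO Mthfd1l was lost, leaving 4 of 5. Calls over all genes fell too, in WT from 4118 to 2500 with length offsets. They were 2627 and 2487 with limma on log2(TPM + 1) and log2(TPM + 0.1). In KO cells they fell from 4348 to 2665, 2619 and 2506. From 24 to 48 h the count of enzymes was 2 in place of 4 with length offsets and with limma on log2(TPM + 1) and log2(TPM + 0.1). Over all genes these settings called 1722, 1825 and 1733 in place of 3157. Between genotypes at 0 h the count of enzymes was 2 in place of 1 with no filter on low counts. It was 0 with length offsets and both limma fits. Over all genes 386 were called with no filter, 60 with length offsets and 20 and 18 with limma, in place of 220. At 24 h calls over all genes were 64 with length offsets, 20 and 14 with limma and 13 with only the groups compared. The enzymes called there were 1 in place of 2 with length offsets, and 0 with both limma fits and with only the groups compared. Leaving out each library in turn gave 4 to 6 called for WT from 0 to 48 h, 3 to 5 for KO (3 without KO 0 h replicate 2), 7 to 9 from 0 to 24 h, 3 to 4 from 24 to 48 h, 0 to 3 between genotypes at 0 h, 1 to 3 at 24 h and 0 to 0 at 48 h and for both changes of the genotype difference. At 0 h the call of Gldc was lost without WT 0 h replicate 2, KO 0 h replicate 1 or KO 0 h replicate 2, and Shmt2 and Mthfd2 were also called without KO 24 h replicate 1. At 24 h the call of Gcat was lost without WT 24 h replicate 1. Where a group was left with 1 library, that library was assumed to vary like the others. Over all genes, calls between genotypes at 24 h numbered 255, 238 without KO 24 h replicate 1 and 2327 without KO 24 h replicate 2, and ranged from 13 to 2327. The cause of these changes was not tested. Within a time, WT and KO libraries with the same replicate number did not deviate together (correlations 0.00328, 0.0508 and -0.00937 at 0, 24 and 48 h). These correlations cannot show whether libraries of the same number are paired across times. The sample titles name no other pairing. With the replicate block, 6 enzymes were called for WT and 5 for KO from 0 to 48 h, 7 from 0 to 24 h (Amt lost), 4 from 24 to 48 h, 1, 2 and 0 between genotypes, and 0 for both changes of the difference.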
